A study of Mus musculus with 7 samples.

Results

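Rbpj, the DNA-binding transcription factor of Notch signalling, and 7 further genes that make, cut or serve the Notch receptor were examined for dimethylation of lysine 79 of histone H3 (H3K79me2) in mouse bone marrow-derived macrophages. The 8 genes were Notch1, Notch2, Adam10, Adam17, Ncstn, Rbpj, Maml1 and Spen. They were taken by name, and every region of the deposited table that overlaps the RefSeq span of a gene was assigned to it, which gave 47 of 29397 regions. All 8 genes had at least 1 region. The region with the highest mean count over the 6 libraries stands for its gene and is called its main region, so the high level of a main region is a consequence of that choice. Rbpj itself had drawn notice for its density and for the counts it kept in these same libraries, so the values of its main region are given as a description, with no test.

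The treated macrophages came from C57BL/6 marrow cultured for 7 to 8 days with conditioned medium as the M-CSF source and received SGC0946, which blocks DOT1L, the enzyme that methylates H3K79, at 1 µM while they differentiated. Control macrophages were grown in the same way with DMSO, the solvent. There were 3 chromatin immunoprecipitation (ChIP-seq) libraries in each group, called biological replicates in the design text. The growth protocol speaks of WT and KO mice without saying which of them gave these cells, and an input library was not used here.

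Notch receptors sit at the cell surface and are activated by ligands of the Delta and Jagged families on a neighbouring cell. ADAM proteases then cut the receptor outside the membrane, the gamma-secretase complex cuts it within the membrane, and the freed intracellular part enters the nucleus, where it joins RBPJ and a Mastermind protein to switch on target genes. Without that signal RBPJ is held with corepressors such as SPEN. In macrophages RBPJ is known for its part in inflammatory gene expression, and H3K79me2 is a mark that DOT1L lays down over the first part of transcribed genes.

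The main regions of all 8 genes contained an annotated start site, against 51.6% of 7757 coding genes that had a region and a start site in the RefSeq promoter table (GRCm38.p6, the assembly that mm10 names), and 60.9% of the 6483 with a mean of at least 50 counts. The windows of 250 bases before the start sites of the 3 densest genes are shown because the main regions begin in or just before them. Capitals mark TGGGAA, the core of the sequence bound by RBPJ, on either strand, and GTGGGAA, its longer form, which contains it. The windows are chr5:53590096-53590345 (plus strand), chr4:141538598-141538847 (minus strand) and chr3:98013288-98013537 (plus strand).
Rbpj: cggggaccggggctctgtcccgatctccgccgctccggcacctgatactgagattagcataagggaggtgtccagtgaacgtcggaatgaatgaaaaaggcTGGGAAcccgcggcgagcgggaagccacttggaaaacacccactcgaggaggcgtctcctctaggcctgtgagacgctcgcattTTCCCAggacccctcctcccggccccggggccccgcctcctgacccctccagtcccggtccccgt
Spen: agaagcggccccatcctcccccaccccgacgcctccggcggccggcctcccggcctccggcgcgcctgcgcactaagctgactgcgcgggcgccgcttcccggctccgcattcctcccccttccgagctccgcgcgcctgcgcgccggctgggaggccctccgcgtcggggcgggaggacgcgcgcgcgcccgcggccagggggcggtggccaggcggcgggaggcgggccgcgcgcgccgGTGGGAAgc
Notch2: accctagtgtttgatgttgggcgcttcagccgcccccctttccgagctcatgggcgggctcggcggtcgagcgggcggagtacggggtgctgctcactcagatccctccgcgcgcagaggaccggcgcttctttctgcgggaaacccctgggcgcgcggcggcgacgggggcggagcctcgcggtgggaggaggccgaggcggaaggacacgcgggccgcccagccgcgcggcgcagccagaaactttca
The Rbpj window held TGGGAA once on each strand and the Spen window held the longer GTGGGAA once. These were the only genes of the 8 with either motif in this window, and 21.6% of all 32851 windows of the same length held TGGGAA and 5.42% held GTGGGAA. The windows of the 8 genes had 16 (Notch1) to 44 (Spen) CG pairs, against a median of 6 and an upper quartile of 16 over all windows. A motif is a match of letters and not a bound site.

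Total counts over all regions were 2.95 to 3.13 M per library with SGC0946 and 16.7 to 19.5 M with DMSO. The deposited values are read counts per region, and no spike-in chromatin is named, so changes are given on 2 scales. The first is the unscaled count, which the percentages of DMSO counts kept also use. It takes all libraries as sequenced to equal depth, which was not checked. The labels give the same intended depth for each (about 40 M reads). Any difference in depth between the groups would enter these values. The second is the share of the library, in CPM, the count of a region scaled to a fixed library total. The library total here is the sum of counts over all regions and not all reads sequenced. A rise in share thus means a larger part of the counts in regions, and the count itself can fall. Of all tested regions, 99.7% fell and 0.0201% rose in unscaled counts, and 29.4% changed in share, with 6.16% rising and 23.3% falling. A change was called by edgeR's quasi-likelihood test at an adjusted p under 0.05. All 8 macrophage markers examined had a region, with DMSO densities of 84.5 (Itgam) to 339 (Spi1) counts per kb. Of 29 markers of other cell types, 5 had one, of which 4 (Lck, Mpo, Klf1 and Cxcl12) had at most 8 counts per kb and Zbtb46, a dendritic cell factor, had 124. In bulk chromatin, fewer marked cells and less mark per cell cannot be told apart.

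Per length, Rbpj stood far above the other genes in both groups. With SGC0946 its main region averaged 403 ± 24.3 counts per kb (SD, n = 3), followed by Ncstn (39.7 ± 2.42), Spen (39.2 ± 1.68), Notch2 (38.6 ± 0.395), Adam10 (31.6 ± 0.494), Adam17 (26.4 ± 0.262), Maml1 (23.9 ± 1.12) and Notch1 (22.3 ± 1.251). With DMSO the order was Rbpj (557 ± 48.5), Spen (315 ± 22.1), Notch2 (281 ± 22.2), Adam10 (220 ± 25.4), Ncstn (199 ± 18.2), Notch1 (191 ± 19.7), Adam17 (185 ± 19.4) and Maml1 (177 ± 15.5). With SGC0946 the ranges of Ncstn, Spen and Notch2 overlapped, as did those of Maml1 and Notch1. With DMSO the ranges overlapped between Spen and Notch2 and between each neighbouring pair from Adam10 down to Maml1. The DMSO density of Rbpj was the second highest of the 9514 coding genes with a region, after Sirpa at 570 counts per kb.

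**Figure D1:**
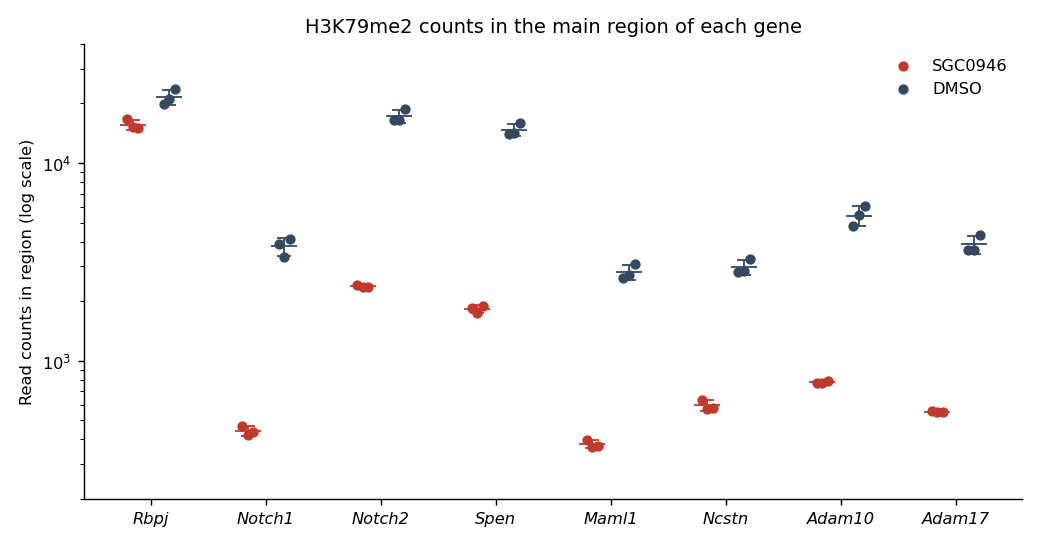
Read counts (log scale) in the main region of each gene, with 1 point per library (SGC0946 red, DMSO dark) and bars for mean ± SD of 3 libraries. In Rbpj the SGC0946 points (15016 to 16706) lie just under the DMSO points (19984 to 23652), while in the other 7 genes the groups are far apart.

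Rbpj kept most of its counts where the other genes lost most of theirs. Its main region (mm10 chr5:53589670-53628414, 38.7 kb) had 16706, 15143 and 15016 counts in the SGC0946 libraries, against 19984, 21121 and 23652 in the DMSO libraries. The groups did not overlap, and the SGC0946 mean was 72.4% ± 7.66 of the DMSO mean (SD from the spread of both groups, n = 3 each). In share the region made up 5152 ± 159 CPM of the counts in all regions with SGC0946 and 1216 ± 24.8 CPM with DMSO. This was a log2 fold change of 2.08 ± 0.03 (SE). On unscaled counts the log2 fold change was -0.47 ± 0.09 (SE), and scaling to the sparsest 25% of all regions turned it to 1.40. Of 7942 coding genes with a mean of at least 50 counts, 58 kept at least 40%, and Rbpj was the third highest in this share, with Tra2b first (79.7%). Rbpj-ps1, Rbpj-ps2 and Rbpj-ps3, pseudogenes of Rbpj on chromosomes 4 and 6, had no region, and neither did Rbpjl, its paralogue. The sources used here do not say how reads that match several places were handled, so reads shared with these copies cannot be counted.

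The retention was not a property of the whole gene. A second Rbpj region of 23.5 kb (chr5:53629330-53652861) began 915 bp after the end of the main one, 39.0 kb after the start site, and lay in the same gene. It had 828, 753 and 754 counts with SGC0946, against 4634, 4543 and 5513 with DMSO. It kept 15.9% ± 1.95, about as much as the other Notch pathway genes. Its unscaled counts fell by 2.65 on the log2 scale (SE 0.11, edgeR adjusted p = 2.7e-137). Its share was 257 ± 7.04 CPM with SGC0946 and 276 ± 7.62 CPM with DMSO, a difference that did not pass the test (log2 fold change -0.10 ± 0.05 SE, edgeR adjusted p = 0.0899). It passed when libraries were scaled to their sparsest 25% (log2 -0.79, adjusted p = 0.000118), when regions averaging under 50 counts were dropped (adjusted p = 0.0483) and without DMSO replicate 2 (adjusted p = 0.0356).

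Within each library the main Rbpj region was 12.3, 12.2 and 12.1 times as dense as the downstream one with SGC0946, and 2.62, 2.82 and 2.61 times with DMSO. These ratios need no scaling between libraries, and the SGC0946 values all lay above the DMSO values. The RefSeq span of Rbpj extends a further 33.9 kb upstream of the main region without any region of the table, and the 2 start sites in the promoter table lie 676 and 816 bp inside the main region. With both regions summed, Rbpj kept 61.9%.

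**Figure D2:**
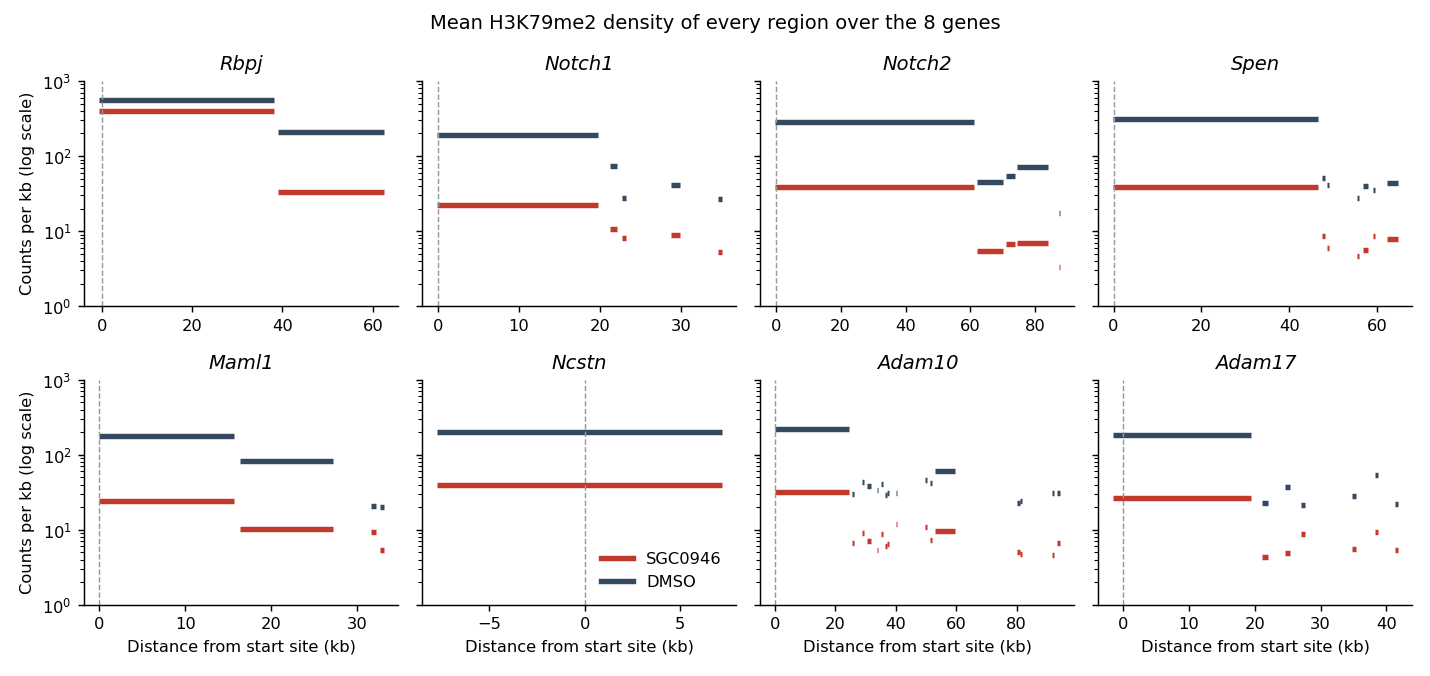
Mean counts per kb (log scale) of each of the 47 regions, drawn to length against the distance in kb from the start site (dashed line) in the direction of transcription, with SGC0946 in red and DMSO dark. The lines nearly meet over the first 38.1 kb of Rbpj and part widely over its downstream region, which kept 15.9%, while in the other genes they are well apart over every main region.

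Few genes showed such a difference between their main and second regions. The second region is the one with the next highest mean count over the gene. It need not adjoin the main region, as the second Rbpj region nearly does, and it can be shared with another gene. In 914 coding genes with a second region, where both regions had a mean of at least 200 counts, the main region kept a median of 13.2% and the second 12.8%. The log2 ratio of the share kept in the main over the second region had a median of 0.02 and its middle 50% ran from -0.17 to 0.32. For Rbpj it was 2.19, a 4.55-fold difference and the second highest of the 914, after Nrros (2.48). It was 0.52 for Notch2, 0.11 for Maml1 and -0.18 for Adam10. The main regions of 9 genes kept at least 40%, and their second regions, of which that of Nrros kept 7.91%, kept a median of 13.5%. Main regions are chosen by the counts of both groups, and this set was assembled after the Rbpj values had been seen, so it is a description without a test.

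**Figure D3:**
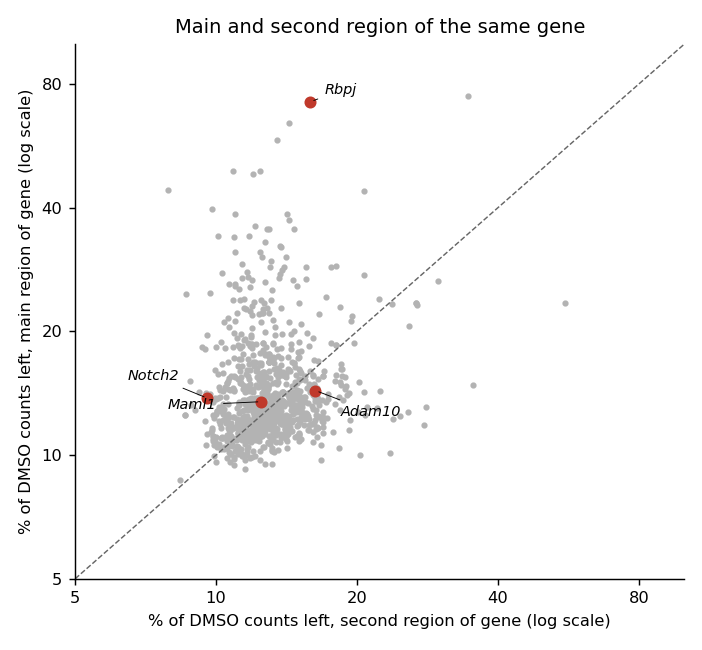
Percentage of DMSO counts left with SGC0946 in the main region (vertical, log scale) and in the second region (horizontal, log scale) of 914 coding genes, 1 point per gene, with equality as a dashed line. Rbpj lies far above the line at 72.4% and 15.9%, while Notch2, Maml1 and Adam10 lie in the main cloud.

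Both receptor genes fell in share, as did 50.1% of coding genes, whose median log2 fold change was -0.29. Notch1 (main region chr2:26484148-26503992) had 470, 422 and 435 counts with SGC0946, against 3904, 3361 and 4120 with DMSO. It kept 11.7% ± 1.37, the least of the 8 genes, and fell in share by 0.55 on the log2 scale (SE 0.06, edgeR adjusted p = 4.9e-13). Notch2, the longer-marked receptor (chr3:98013229-98074769, 61.5 kb), had 2403, 2359 and 2363 counts with SGC0946, against 16480, 16497 and 18854 with DMSO. It kept 13.7% ± 1.096 and fell in share by 0.31 (SE 0.04, edgeR adjusted p = 3.9e-11), a call that was lost with DESeq2 size factors (adjusted p = 0.118). Within each library the count ratio of Notch2 to Notch1 was 5.11, 5.59 and 5.43 with SGC0946, against 4.22, 4.91 and 4.58 with DMSO. Every SGC0946 ratio exceeded every DMSO ratio (log2 difference 0.24, exact 2-sided permutation p = 0.1, the lowest value possible with 3 libraries a group, and 0.2 adjusted over the 2 ratios tested).

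The ADAM protease genes kept similar parts of their counts. Adam10, whose product makes the first cut in ligand-bound Notch (main region chr9:70678900-70703511), had 769, 771 and 791 counts with SGC0946, against 4777, 5438 and 6027 with DMSO. It kept 14.4% ± 1.67. Adam17, which encodes the protease that sheds TNF and can also cut Notch (chr12:21354250-21375238), had 559, 548 and 553 counts with SGC0946, against 3637, 3647 and 4346 with DMSO. It kept 14.3% ± 1.503. Both fell in share, Adam10 by 0.25 (SE 0.05, edgeR adjusted p = 1.4e-05) and Adam17 by 0.26 (SE 0.05, edgeR adjusted p = 1.5e-05). These 2 calls were lost with TMM factors (adjusted p = 0.133 and 0.103), with DESeq2 size factors (0.278 and 0.227) and in the DESeq2 Wald test (0.408 and 0.227). The count ratio of Adam10 to Adam17 was 1.38, 1.41 and 1.43 with SGC0946, against 1.31, 1.49 and 1.39 with DMSO, so the groups overlapped (log2 difference 0.0092, exact 2-sided permutation p = 0.9, also 0.9 adjusted over the 2 ratios). The sign of this difference turned when SGC0946 replicate 3 or DMSO replicate 1 was left out (-0.0041 and -0.034).

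Ncstn, which encodes nicastrin, the substrate-docking subunit of gamma-secretase, kept more than these. Its region (chr1:172075557-172090515) had 635, 568 and 578 counts with SGC0946, against 2803, 2833 and 3288 with DMSO. It kept 20.0% ± 2.19 and rose in share by log2 0.23 (SE 0.05, edgeR adjusted p = 0.000165), but fell by 0.46 when libraries were scaled to their sparsest 25% (adjusted p = 0.0235). The region contains the Ncstn start site and runs into the adjoining gene Copa, which encodes a coat protein of Golgi vesicles. It overlaps Ncstn over 48.4% and Copa over 53.4% of its length, so its counts cannot be assigned to Ncstn alone.

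The nuclear partners of RBPJ did not share its retention. Maml1, a Mastermind coactivator (chr11:50276640-50292443), had 398, 366 and 369 counts with SGC0946, against 2613, 2712 and 3078 with DMSO. It kept 13.5% ± 1.34 and fell in share by 0.34 (SE 0.05, edgeR adjusted p = 4.3e-07). Spen, the corepressor (chr4:141492103-141538807, 46.7 kb), had 1849, 1745 and 1899 counts with SGC0946, against 13953, 14248 and 15871 with DMSO. It kept 12.5% ± 1.03 and fell in share by 0.45 (SE 0.04, edgeR adjusted p = 4.6e-16). In all, 6 of the 7 main regions other than that of Rbpj fell in share and 1 rose, where 60.1% of coding genes changed by the same test, 50.1% downward and 9.98% upward. All 7 fell in unscaled counts, as did 99.8% of coding genes. The main regions of Notch1, Notch2, Spen and Adam17 also overlap the predicted genes Gm35978, Gm40103, Gm4123 and Gm22766 in that order.

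Spen kept little for a gene so densely marked. Among 330 coding genes with DMSO densities within 10% of that of Spen, the share kept had a median of 19.8% and a middle 50% from 17.1% to 25.6%, and 3 genes kept less than the 12.5% of Spen. For Notch2, 484 genes of like density had a median of 17.9%, and 43 of them kept less than its 13.7%. Adam10 (14.4%, against a median of 14.7% in 767 genes), Adam17 (14.3%, against 13.5% in 873) and Maml1 (13.5%, against 13.3% in 892) lay near the middle. Notch1 kept 11.7%, against a median of 13.8% in 867 genes, and Ncstn 20.0%, against 13.8% in 811. Sirpa, the 1 gene within 10% of the density of Rbpj, kept 49.0%. These comparisons by density were added after the values had been seen and carry no test.

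**Figure D4:**
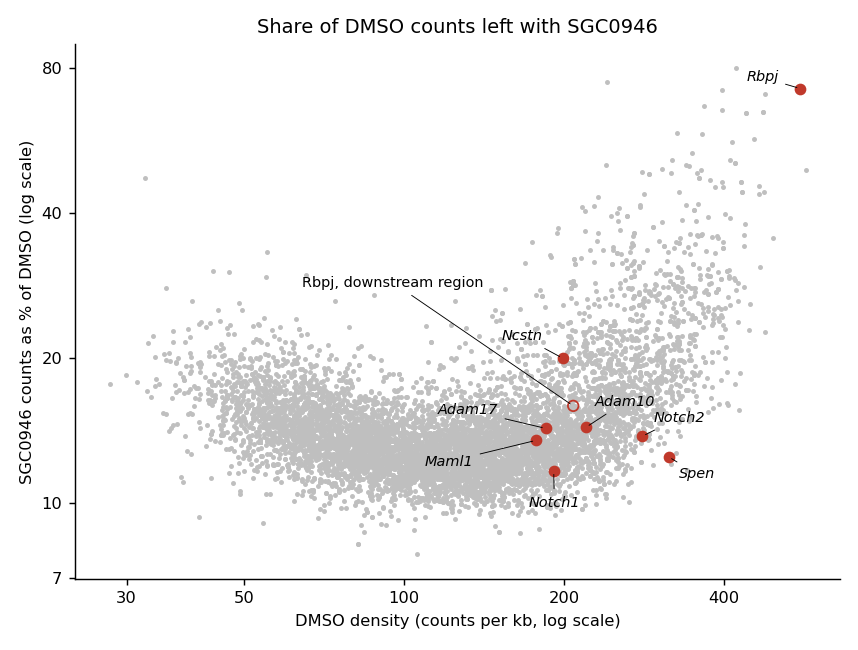
Percentage of DMSO counts left with SGC0946 (log scale) against DMSO counts per kb (log scale) for the main regions of 7942 coding genes with a mean of at least 50 counts (grey) and the 8 genes (red), with the downstream Rbpj region as an open circle. Rbpj lies at the upper right at 557 counts per kb and 72.4%, Spen lies at the lower edge of the genes of its density, and Notch2 lies below the middle of those of its own density.

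Beyond the main regions the mark was sparse. The other 38 regions of the 7 genes measured 500 to 10801 bp and had 3.33 to 11.9 counts per kb with SGC0946 and 17.3 to 81.5 with DMSO. Of these, 28 passed the count filter of the share test, and 3 fell while 25 did not pass the test, where 23.3% of all tested regions fell and 6.16% rose. The 3 that fell were the Notch2 regions at chr3:98075656-98083506 (11.9% kept, edgeR adjusted p = 0.00165) and chr3:98087880-98097279 (9.58% kept, adjusted p = 1.2e-08) and the Maml1 region at chr11:50265173-50275973 (12.5% kept, adjusted p = 8.2e-05). All 30 that could be tested on unscaled counts fell, near the background of 99.7%. The main region held 75.7% (Maml1) to 98.4% (Spen) of the DMSO counts of those 6 genes with several regions other than Rbpj. For Rbpj it held 95.3% of the SGC0946 counts and 81.5% of the DMSO counts.

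The wider pathway was covered unevenly by role. Of 76 Notch pathway genes listed by role, 53 had a region, against 43.4% of all 21900 coding genes. The cleavage group was nearly complete (9 of 10 with a region), as were the nuclear coactivators (10 of 11) and corepressors (13 of 14). Of the ligands 2 of 7 had one, Jag1 and, at a mean of 4 counts with SGC0946 and 1.67 with DMSO, Dlk2. Of 10 target genes 2 had one, the general growth genes Myc and Ccnd1. Hes1, Hes5, Hey1, Hey2, Heyl and Nrarp, the best known direct targets of Notch, had no region, and neither did Dtx1 and Gata3. Notch3, Dll1, Dll3, Dll4, Jag2, Dlk1, Aph1b, Mfng, Eogt, Kat2a, L3mbtl3, Numbl, Dtx3, Neurl1a and Nedd4 were without one as well. A gene without a region has no counts in the table, so its level was not measured.

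The 43 tested pathway genes other than the 8 had a median near that of all coding genes. In share 24 fell, 1 rose and 18 did not pass, where 50.1% of coding genes fell and 9.98% rose. All 43 fell in unscaled counts, as did 99.8% of coding genes. Over the whole list of 51, 30 fell and 3 rose on library totals. With TMM factors 22 fell, with DESeq2 size factors 21, and in the DESeq2 Wald test 18 of 53 tested genes. When libraries were scaled to their sparsest 25%, 47 fell and 1 rose. The rises on library totals and with sparse scaling include Rbpj, which is counted as a description and not as a test result. Counts of Psenen, Pofut1, Rfng, Snw1, Ncor1, Kdm5a and Dtx3l also come from regions shared with another coding gene. Over all 51 tested pathway genes the median log2 fold change of the share was -0.28, against -0.29 over coding genes, and the median kept was 14.03% in the list and 14.003% over coding genes. Among receptors and ligands, Notch4, whose region is shared with Gpsm3, and Jag1 fell in share by 0.44 and 0.46 (edgeR adjusted p = 0.00246 and 0.00235).

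In the cleavage group 6 of 9 tested genes fell in share, beside the 50.1% of coding genes that fell. Aph1a, a gamma-secretase subunit, had the lowest value of the list, at 35 ± 7.21 counts with SGC0946 and 356 ± 26.7 with DMSO (9.83% kept, edgeR adjusted p = 7.1e-06). Aph1c (11.7% kept) and the proprotein convertase gene Furin (15.0%) fell too. The fall of Furin (log2 -0.19) was smaller than the coding gene median (-0.29). Psen2 and Psenen did not pass (adjusted p = 0.0601 and 0.198). None of the glycosyltransferase genes that modify the receptor passed a threshold that Lfng came near (15.3% kept, adjusted p = 0.0509). The others were Pofut1 (17.8%), Rfng (14.03%) and Poglut1 (26.2%, with 5.67 counts with SGC0946 and 21.7 with DMSO).

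Corepressor genes fell in share in 10 of 12 tested, where 50.1% of coding genes fell. Among these, Ctbp2 kept 10.4% (885 ± 63.0 counts with SGC0946 and 8546 ± 741 with DMSO, edgeR adjusted p = 6.6e-22), Hdac3 10.8%, Tle3 11.2%, Ctbp1 11.5%, Hdac1 12.5%, Tle4 13.5%, Kdm5a 13.5% and Ncor1 14.1%, beside Spen. Cir1 and Rita1 did not pass. The 10 tested coactivator genes include Rbpj, which is counted as a description. Of the 10, 5 fell, as 50.1% of coding genes did, namely Maml1, Cdk8 (11.8% kept), Ccnc (11.8%), the acetyltransferase gene Kat2b (12.2%) and Crebbp (12.9%). Ep300, the close relative of Crebbp, kept 17.1% and did not pass (adjusted p = 0.996), and neither did Snw1, Maml2 and Maml3.

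Among the genes of trafficking and turnover, 5 of the 10 tested fell in share, beside 50.1% of coding genes. These were the inhibitor gene Numb (12.2% kept), the kinase gene Aak1 (11.8%) and the ubiquitin ligase genes Itch (11.9%), Fbxw7 (11.98%) and Mib1 (15.6%). The fall of Mib1 (log2 -0.13) was smaller than the coding gene median (-0.29). Dtx4 kept 32.04% and was the 1 further gene that rose in share (920 ± 55.6 counts with SGC0946 and 2871 ± 250 with DMSO, log2 0.91 ± 0.05 SE, edgeR adjusted p = 9.7e-27). Its region also covers Mpeg1, the perforin-2 gene of macrophages, so the counts cannot be assigned to Dtx4, and it was not among the risen genes when libraries were scaled to their sparsest 25%. Dtx2, Dtx3l, Mib2 and Neurl3 did not pass. The target genes Myc (17.5% kept) and Ccnd1 (17.4%) did not pass either (adjusted p = 0.799 and 0.824).

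**Figure D5:**
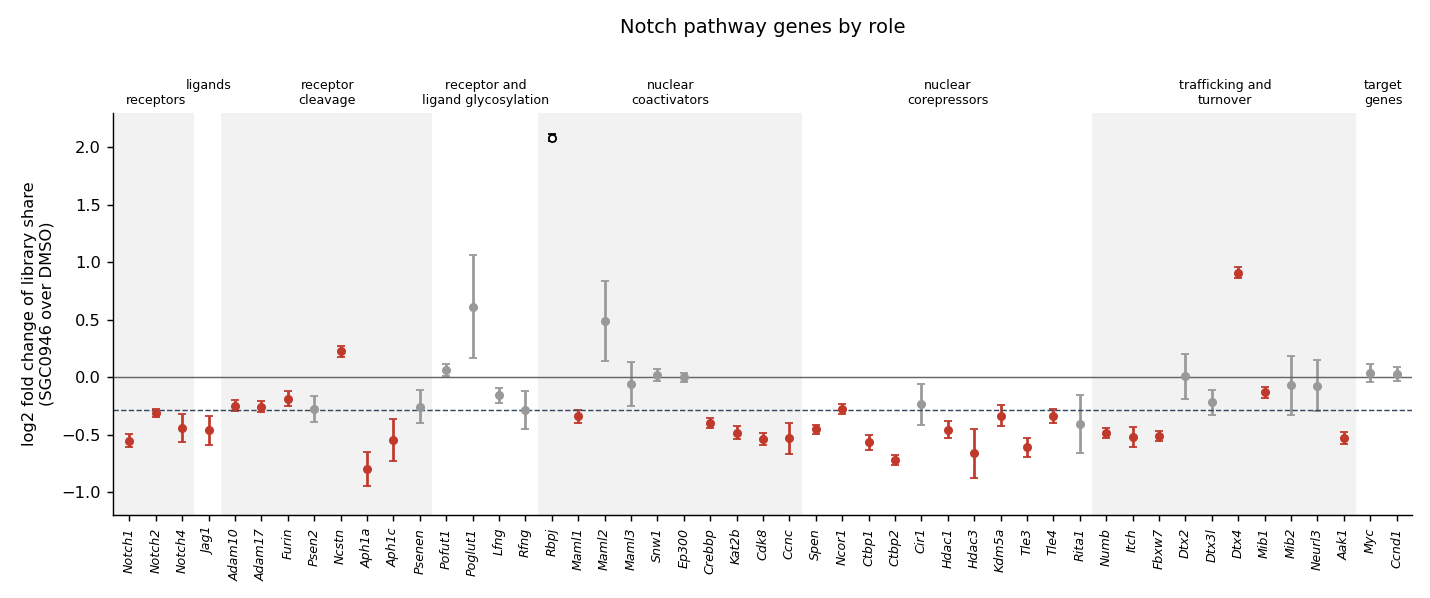
Log2 fold change of the share of the library (SGC0946 over DMSO) for 49 of the 51 tested Notch pathway genes by role, with bars for SE, red where the edgeR adjusted p is under 0.05, grey where it is not, and an open black circle for Rbpj, which is shown without a test. Most genes lie near the dashed line, the coding gene median of -0.29, with Rbpj at 2.08 and Dtx4 at 0.91 above it. Ncstn, at 0.23, turned to -0.46 when libraries were scaled to their sparsest 25%.

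The coding genes most like Rbpj over the 6 libraries, by Euclidean distance of log2(counts per kb + 1) among 7941 genes with a mean of at least 50 counts, were Rap1b (distance 0.58), 4933440N22Rik and Hnrnpf, which share 1 region (0.79), Tra2b (0.84) and Sirpa (0.92). Rap1b had 338 counts per kb with SGC0946 and 479 with DMSO and kept 70.5%. The shared Hnrnpf region had 307 and 475 counts per kb in the same order and kept 64.7%. No other gene of the Notch pathway list came among these 5, which says little about the list, as only 5 of 7941 genes were named. The distance also uses the values for which Rbpj had drawn notice, so the ranking is a description.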

How the data were processed

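H3K79me2 was measured by ChIP-seq in 3 SGC0946 and 3 DMSO macrophage libraries. Per the labels' protocols, 10 to 20 M cells were crosslinked for 10 min in 1% formaldehyde, and precipitated chromatin was read from 1 end (50 bp, about 40 M reads intended). The authors deposited whole-number read counts per region without scaling between libraries. The build was mm10 and the tools were R 3.6.3, ChIPseeker 1.20.0, bedtools 2.27.0, HOMER 4.11.1 and HISAT2, per the submitters' processing notes. The sources used here do not give how regions were called, reads counted or duplicates treated, and these steps could change counts and totals.

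Regions were read as zero-based, written 1-based and assigned by overlap with RefSeq spans of GRCm38.p6 (Python 3.11.15, pandas 2.3.3). Start sites came from the promoter table. All regions were fitted together with edgeR 4.0.16 (quasi-likelihood F test, filterByExpr, Benjamini-Hochberg adjustment over all tested regions, threshold 0.05), once with library totals as library sizes and once with equal sizes. Of the 47 regions, 37 passed the filter of the share test, and all 8 main regions did. SEs were derived by dividing each log2 fold change by the root of its F statistic. Ratios used exact permutation tests (scipy 1.17.1). Alternatives were TMM, DESeq2 1.42.0 size factors and Wald test, other filters, scaling on sparse regions, summed regions, left-out libraries and a replicate block. Pairs of libraries of a group differed by more than sampling noise (chi-square per degree of freedom 1.32 to 2.38). The edgeR step was tested on simulated data. With no statement of separate animals, p-values measure the spread between these samples. Named were the 8 genes with all their regions, pathway genes past the threshold (some genes are counted but not reported by name here), list genes without a region and the 5 genes nearest to Rbpj. The members and lists were chosen with earlier results of these data known.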

Additional observations from a re-analysis of the deposited data

How the results depend on the processing

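Under all scalings, filters and left-out libraries, Notch1, Spen and Maml1 stayed lower in share and past the threshold, and the share of Rbpj stayed higher. The shifts of level between scalings were large: the coding gene median log2 fold change was -0.29 on library totals, -0.18 with TMM and with DESeq2 size factors, -0.99 when scaled to the sparsest 25% of regions, and -2.83 unscaled. Sparse scaling gave 195 rises and 13501 falls over all regions, against 1440 and 5439 on library totals and against 5 and 24820 unscaled. In the pathway list it gave 47 falls and 1 rise, that of Rbpj. The log2 fold change with sparse scaling was -0.46 for Ncstn and 1.40 for the Rbpj main region. The DESeq2 Wald test gave 2505 rises and 2831 falls. Pathway falls numbered 30 on library totals, 22 with TMM, 21 with DESeq2 size factors and 18 of 53 tested genes in the Wald test. Rises numbered 2784 without a filter (197 unscaled) and 808 at a mean of at least 50 counts. Rises were 20.9% of the calls on library totals, 31.1% with TMM, 32.3% with DESeq2 size factors, 1.42% with sparse scaling and 46.9% in the Wald test. Leaving out 1 library gave 918 (without DMSO replicate 3) to 2155 (without SGC0946 replicate 3) rises and 4595 to 5587 falls in share and 5 to 9 unscaled rises, and, for the log2 difference of the Adam10 to Adam17 ratio, -0.034 to 0.057. The downstream Rbpj region turned to 0.0028, 0.011 and 0.011 with TMM, DESeq2 size factors and the Wald test. Background subtraction lowered the share kept by Notch1 to 9.54%, Spen to 11.3%, Maml1 to 11.4% and Adam17 to 12.4%. It lowered that of Notch2 to 12.5%, Adam10 to 12.8% and Ncstn to 19.0%, and raised that of Rbpj to 74.2%. The cause of these shifts was not tested. With the replicate number as a block, 1414 regions rose and 5202 fell, and no call among the 7 main regions other than that of Rbpj changed. The sample titles use the same replicate numbers in both groups and do not say whether same-numbered libraries belong together. Correlations of same-numbered deviations were 0.008, -0.115 and -0.010. With 3 libraries a group, such values cannot tell paired from unpaired samples, since noise within libraries could hide a pairing. Pairing was thus left undecided, and the blocked fit is given here alone. With the block, the Notch2 to Notch1 and Adam10 to Adam17 ratios had exact sign-flip p of 0.25 and 1. Counts of SGC0946 limit precision, since the small regions of these genes had few.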

Other observations

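Across the 49 pathway genes with a mean of at least 50 counts, the share of DMSO counts kept went weakly with DMSO density (Spearman rho 0.248, and 0.200 over 48 genes without Rbpj), against 0.175 over 7942 coding genes. DMSO counts enter both measures. Genes share libraries and depth and are not independent replicates, so these values are descriptions.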
